A study of Mus musculus with 4 samples.

Results

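Chemokines and receptors that organize lymphoid tissue were followed through 4 libraries of lung RNA from C57BL/6 mice. The genes were taken by symbol: the chemokines Cxcl13, Ccl19, Ccl21a, Ccl20 and Cxcl12, the chemokine receptors Cxcr5 and Ccr7, and Ltb, which encodes lymphotoxin beta. All 8 were found among the 23284 genes of both deposited tables, and all 8 passed the filter of a mean FPKM of at least 1 in each table. The first table holds a mouse line labelled IL22-/-, which lacks interleukin-22, and a wild-type library, both from mice sensitized and challenged with house dust mite (HDM), with lungs taken 48 h after the last dose. The other table holds wild-type lungs taken 24 h after recombinant IL-22 or phosphate-buffered saline (PBS) was put into the trachea. Each group is 1 library, and the labels give neither the number of animals behind it nor their age. No difference therefore has a replicate check, and no p-value was computed.

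In lymphoid organs, CXCL13 made by stromal cells of follicles draws B cells through its receptor CXCR5, while CCL19 and CCL21 draw T cells and mature dendritic cells through CCR7. Lymphotoxin beta, made by lymphocytes and lymphoid tissue inducer cells, signals through the lymphotoxin beta receptor on stroma and keeps those chemokines expressed by way of noncanonical NF-kB. CXCL12 acts on CXCR4 and is made by many stromal and endothelial cells, and CCL20 is an epithelial chemokine for cells that carry CCR6. Lungs can form follicle-like lymphoid aggregates during long inflammation, and IL-22 is one of the cytokines studied in that setting.

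Levels are in FPKM, fragments scaled to transcript length and library total, which can be compared between genes within a library. Differences are taken on the log2(FPKM + 1) scale within a table, a scale that understates the contrast for genes of low level. Genes whose difference reached 1 in either direction passed the size rule and are written as higher or lower. From the whole-read steps of low values, the depth was 27.1 M reads in the knockout HDM library and 24.8 M in the wild-type HDM library, and 28.6 M with IL-22 and 19.9 M with PBS. All 7 lung epithelial markers were measured (medians -0.31 in the HDM table and -0.17 in the IL-22 table), with Sftpc, the surfactant gene of alveolar type II cells, at 30749 to 37820 FPKM. Il22 itself had 0 reads in the knockout HDM library and 8 in the wild-type HDM library, and 0 in both libraries of the other table.

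Of the 8 genes, 2 were lower in the HDM-treated knockout and none higher, where 2.42% of the 13285 measured genes were lower, 0.549% higher and 2.97% either. With IL-22, 1 of the 8 was higher than with PBS and none lower, where 0.597% of 13233 measured genes were higher, 0.189% lower and 0.786% either. Cxcl13 was the gene past the size rule in both tables, in opposite directions, and Ccl20 was the other one in the HDM table. The median difference of the 8 genes was -0.35 in the HDM table, against 0.03 over all measured genes, and 0.24 in the IL-22 table, against 0.04. Between the HDM libraries, 7 of the 8 lay below 0, as did 46.1% of all measured genes. Between IL-22 and PBS, 2 of the 8 lay below 0, as did 41.4% of all.

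**Figure D1:**
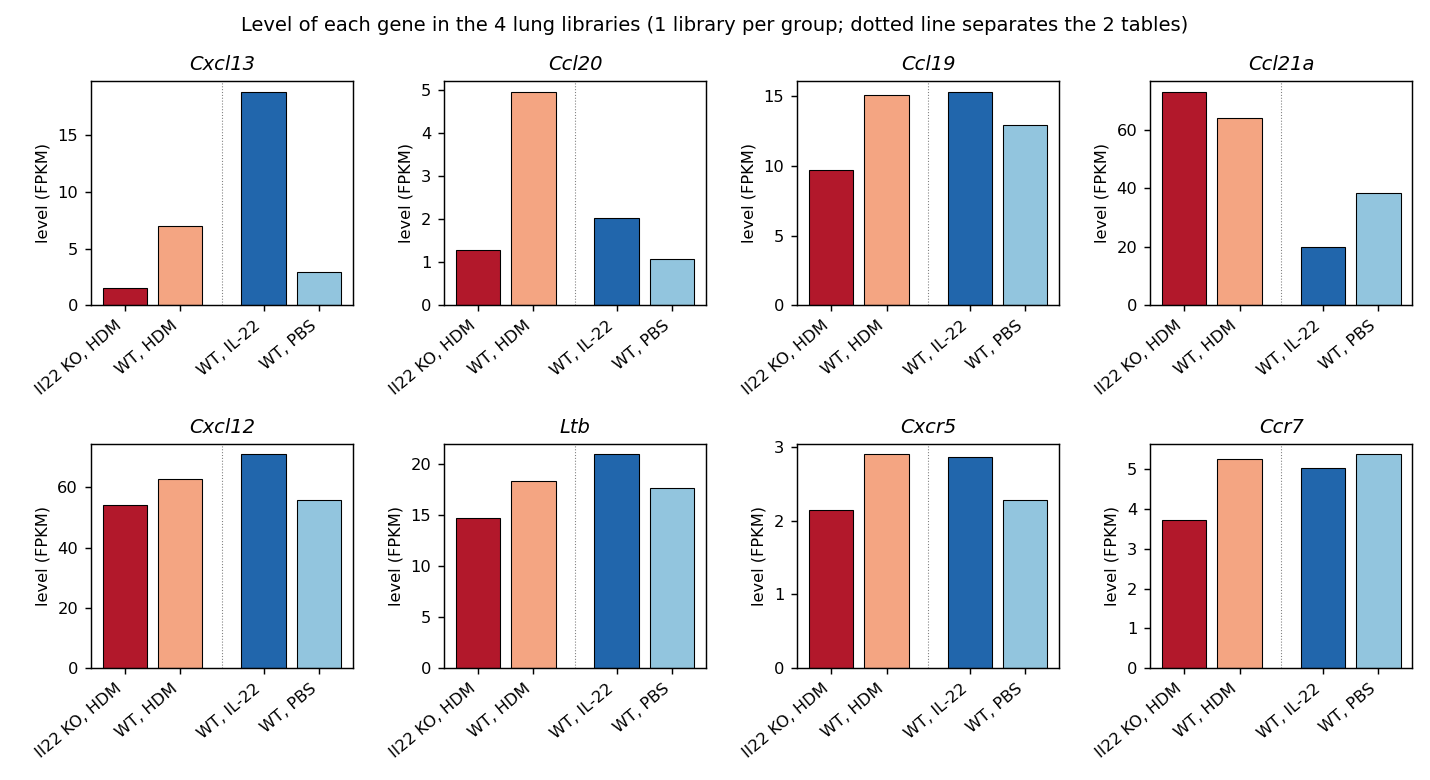
Level of each of the 8 genes in FPKM (vertical axes, linear, from 0) in the 4 libraries, 1 bar per library, with the HDM table left of the dotted line and the IL-22 table right of it. Cxcl13 is at 1.56 and 7.04 FPKM in the knockout and wild-type HDM libraries and at 18.8 and 2.91 FPKM with IL-22 and PBS, while bars of Ltb and Cxcl12 are of more even height.

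The sequences before the starts of 4 of these genes are shown because Cxcl13 and Ccl20 were past the size rule, Ltb heads the pathway that maintains such chemokines, and Ccl21a had the lowest difference of the 8 with IL-22. They are the 250 bases before the start on the gene's strand, from RefSeq on GRCm38.p6, in which 6 of the 8 genes had an entry. They lie at chr5:95956689-95956938 (plus strand), chr1:83116516-83116765 (plus strand), chr17:35194257-35194506 (plus strand) and chr4:42773992-42774241 (minus strand). Capitals mark matches on either strand, overlapping ones joined, to GGGNNNNNCC, the frame of NF-kB sites, or to TTCNNNGAA, the frame of STAT sites.
Cxcl13: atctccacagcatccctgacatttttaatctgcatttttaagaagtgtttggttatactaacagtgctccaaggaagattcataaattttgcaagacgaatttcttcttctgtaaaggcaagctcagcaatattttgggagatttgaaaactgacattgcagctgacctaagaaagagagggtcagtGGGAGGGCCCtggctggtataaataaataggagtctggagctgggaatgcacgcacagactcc
Ccl20: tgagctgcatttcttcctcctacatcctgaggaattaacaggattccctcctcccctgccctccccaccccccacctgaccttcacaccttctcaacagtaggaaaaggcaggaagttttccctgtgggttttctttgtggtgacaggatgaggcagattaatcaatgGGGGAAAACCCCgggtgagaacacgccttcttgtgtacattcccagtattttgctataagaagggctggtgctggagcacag
Ltb: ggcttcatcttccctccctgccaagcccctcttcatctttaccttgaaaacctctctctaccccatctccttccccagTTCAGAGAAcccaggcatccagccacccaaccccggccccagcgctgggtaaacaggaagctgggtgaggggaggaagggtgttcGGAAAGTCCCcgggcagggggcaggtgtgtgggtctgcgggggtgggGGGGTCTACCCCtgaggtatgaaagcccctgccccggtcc
Ccl21a: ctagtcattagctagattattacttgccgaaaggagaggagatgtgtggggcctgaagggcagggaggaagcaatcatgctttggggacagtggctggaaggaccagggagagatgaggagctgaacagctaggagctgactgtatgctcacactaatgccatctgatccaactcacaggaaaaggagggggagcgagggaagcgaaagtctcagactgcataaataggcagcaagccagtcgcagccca
In Cxcl13 the match GGGAGGGCCC stands 63 to 54 bases before the start. The upstream bases of Ccl20 hold the 12-base stretch GGGGAAAACCCC, 82 to 71 bases before its start. Ltb has GGAAAGTCCC at 87 to 78 bases and GGGGTCTACCCC at 40 to 29 bases, and it is the one of the 6 with a STAT-frame match, TTCAGAGAA at 172 to 164 bases. Ccl21a has no match to either frame in this window. The NF-kB frame is loose: 45.8% of 32851 windows of this length hold it, against 5 of the 6 here, while 7.02% hold the STAT frame. A match describes the letters only and was not tied to binding.

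Cxcl13 (chromosome 5, 95956939 to 95961068, GRCm38), the B cell chemokine, was at 1.56 FPKM in the knockout HDM library and 7.04 FPKM in the wild-type HDM library. That is 4.51-fold lower in the knockout, a difference of -1.65. An estimated 40 and 166 reads stood behind these levels, and their ratio after depth was 0.221, with an exact 95% interval of 0.152 to 0.313 that covers counting error only. Of the 13285 measured genes, 102 had a lower difference. In the other table Cxcl13 was at 18.8 FPKM with IL-22 and 2.91 FPKM with PBS, from 512 and 55 reads, a ratio of 6.47 (4.89 to 8.71) and a difference of 2.34. There, 19 of 13233 genes had a higher difference. In bulk lung, fewer cells of a type and less RNA per cell cannot be told apart, for this gene and all that follow.

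Cxcr5 (chromosome 9, 44511787 to 44526444), the receptor of CXCL13 on B cells and follicular helper T cells, differed less. It was at 2.15 FPKM in the knockout HDM library and 2.90 FPKM in the wild-type HDM library (141 and 174 reads, ratio 0.742, interval 0.590 to 0.931). With IL-22 it was at 2.86 FPKM and with PBS at 2.27 FPKM (198 and 109 reads, ratio 1.26, interval 0.995 to 1.61). The differences were -0.31 and 0.24, neither past the size rule. Per length, Cxcl13 was 0.727 times the level of Cxcr5 in the knockout HDM library and 2.43 times in the wild-type HDM library. The same ratio was 6.58 with IL-22 and 1.28 with PBS, so the ligand stood below its receptor in the knockout HDM library and above it in the other 3 libraries.

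Every measured B cell marker differed by less than Cxcl13 in both tables. Between the HDM libraries, all 9 measured markers of 10 lay below 0, with a median of -0.09, and 1 of them, Fcer2a, the low-affinity IgE receptor of B cells, was lower (2.69 FPKM in the knockout against 9.41 FPKM in wild type, difference -1.49). Cd79a, a chain of the B cell receptor complex chosen as an example after its values were seen, was at 18.6 FPKM in the knockout and 18.9 FPKM in wild type. The summed level of the 10 markers was 53.9 FPKM in the knockout HDM library and 63.9 in the wild-type HDM library, and 76.5 with IL-22 and 70.9 with PBS. In the IL-22 table the median of the list was 0.10 and none was past the size rule, with Ms4a1, the gene of CD20, at 0.47 and Pax5, a B lineage transcription factor, at -0.56.

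Most monocyte and interstitial macrophage markers differed in the same directions as Cxcl13 in both tables. All 12 markers of the list lay below 0 in the HDM table and 6 of them were lower (median -1.12). With IL-22, 10 of the 12 lay above 0 and 3 were higher (median 0.58). The markers Csf1r and Cd68 lay below 0 there (differences -0.14 and -0.22). C1qb, a complement chain made by macrophages, was at 43.2 FPKM in the knockout HDM library and 153 FPKM in the wild-type HDM library, and at 129 FPKM with IL-22 and 56.0 FPKM with PBS. Adgre1, the F4/80 antigen, had a difference of -0.94 in the HDM table and 1.97 with IL-22, and Ms4a7 had -1.55 and 1.12. The summed level of the list was 268 FPKM in the knockout HDM library against 600 FPKM in the wild-type HDM library, and 562 FPKM with IL-22 against 368 FPKM with PBS. Most of the gap between these sums, in both tables, lay in C1qb and the related chains C1qa and C1qc. C1qa was at 42.5 and 132 FPKM in the knockout and wild-type HDM libraries, and C1qc at 27.5 and 82.9 FPKM. With IL-22 and PBS, C1qa was at 139 and 76.3 FPKM and C1qc at 80.1 and 42.1 FPKM. Alveolar macrophage markers gave a mixed picture, with 3 of 8 lower in the HDM-treated knockout (median -0.46) and 1 of 8 higher with IL-22 (median -0.16). The 1 higher with IL-22 was Fabp4, a fatty acid binding protein of alveolar macrophages that is also made by fat cells and capillary endothelium, and it was among the 3 lower in the knockout (differences -1.48 and 1.37). The other 7 lay below 0 with IL-22. The summed level of all 8, Fabp4 included, was 706 FPKM in the knockout HDM library against 2925 FPKM in the wild-type HDM library, mostly from Chil3, a chitinase-like protein (367 FPKM in the knockout against 2438 FPKM in wild type). The sums of all 8 were 607 FPKM with IL-22 and 548 FPKM with PBS. Fabp4 made up 175 FPKM of the first and 67.1 FPKM of the second, and it was the one marker above 0 there. The part of these cells in the difference of Cxcl13 was not tested. The marker list of follicular dendritic cells and reticular stroma had medians of -0.18 and -0.03, and Cr2, the complement receptor of follicular dendritic cells and B cells, was at 0.415 to 0.512 FPKM in all 4 libraries.

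The genes nearest to Cxcl13 in the plane of the 2 differences, among 11676 named protein-coding genes measured in both tables, were Clca3, Fcrls and Cd72. Clca3, a secreted protein of goblet cells, lay at a distance of 0.46, with differences of -2.04 and 2.09. Fcrls, a scavenger receptor of macrophages, lay at 0.54 (-1.21 and 2.65), and Cd72, a lectin-like coreceptor on B cells, at 0.63 (-1.02 and 2.39). No other named gene than Clca3 lay within 0.5 of Cxcl13. Over all genes, 29 were lower in the HDM-treated knockout and higher with IL-22, which is 9.01% of the 322 lower and 36.7% of the 79 higher genes, and Cxcl13 was the one of the 8 among them. Beside macrophage genes such as C1qb and Ms4a7, the 29 held genes typical of fat cells, named here after their values were seen. Adipoq, the gene of adiponectin, had differences of -1.16 and 1.46, Cfd, the gene of adipsin, -1.23 and 1.01, Car3, a carbonic anhydrase abundant in fat and muscle, -1.46 and 1.70, and Pck1, an enzyme of gluconeogenesis and glyceride synthesis, -1.19 and 1.40. Nppa, the natriuretic peptide gene of heart atria, had -2.69 and 1.64, and small noncoding RNAs such as Snora65 were among the 29 as well. The part of fat or heart tissue in the lung samples, and of small RNAs, in these differences was not tested.

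**Figure D2:**
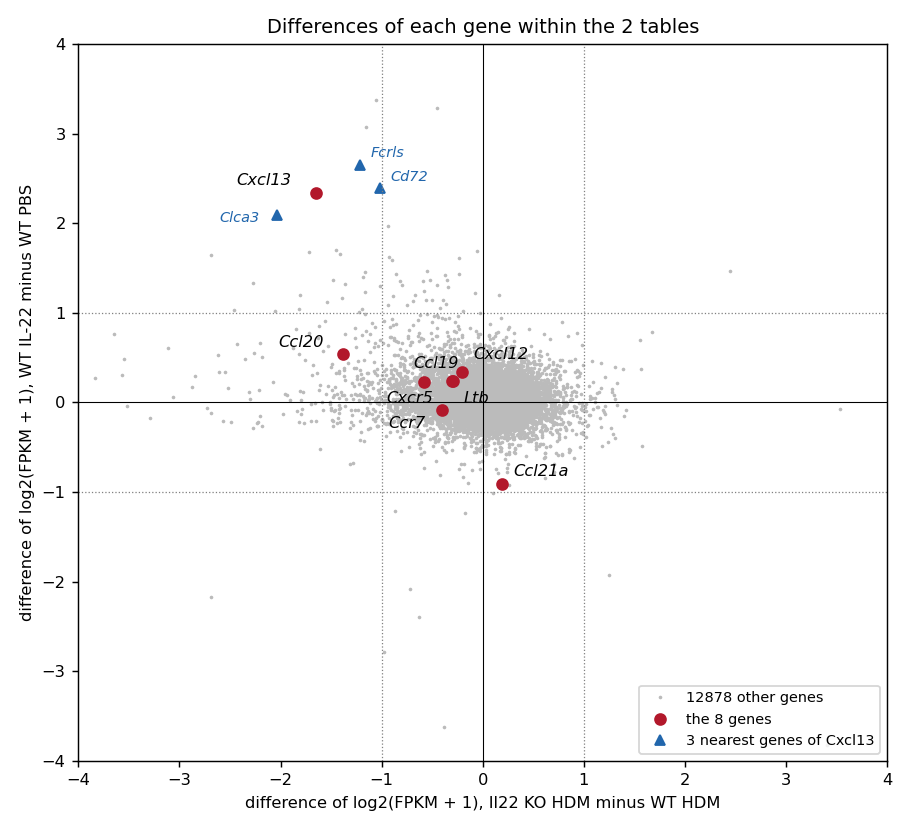
Difference of log2(FPKM + 1) of each gene in the HDM table (horizontal, knockout minus wild type) and in the IL-22 table (vertical, IL-22 minus PBS), with grey points for 12878 other genes measured in both tables, red points for the 8 genes and blue triangles for the 3 nearest genes of Cxcl13. Dotted lines mark the size rule of 1, and 16 genes lie outside the axes. Cxcl13 stands at -1.65 and 2.34, Ccl21a at 0.19 and -0.91, and the other genes except Ccl20 lie within the rule in both tables.

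Ccl20 (chromosome 1, 83116766 to 83119167), the ligand of CCR6, was the other member past the size rule in the HDM table. It was at 1.29 FPKM in the knockout HDM library and 4.95 FPKM in the wild-type HDM library, 3.84-fold lower, with a difference of -1.38. The 21 and 73 reads gave a ratio of 0.263 with an interval of 0.154 to 0.433. With IL-22 it was at 2.03 FPKM and with PBS at 1.08 FPKM. Those levels rest on 34 and 13 reads, a ratio of 1.82 whose interval of 0.935 to 3.75 includes 1, so a difference with IL-22 was not detectable at this depth. Its receptor Ccr6, carried by B cells, type 17 lymphocytes and some dendritic cells, stayed under the filter with 9 and 7 reads in the knockout and wild-type HDM libraries and 13 and 8 reads with IL-22 and PBS. The type 17 cytokine genes Il17a and Il17f were listed at 0 in all 4 libraries. None of the measured markers of innate lymphoid and type 17 cells passed the size rule in either table.

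Genes near Ccl20 in the plane included Ms4a4c at a distance of 0.04 and Fcer2a at 0.16. Its surroundings in the plane were denser than those of Cxcl13, since 92 named genes lay within 0.5 of Ccl20.

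Ccl19 (chromosome 4, 42754525 to 42756365) and Ccl21a (chromosome 4, 42772860 to 42773991), the ligands of CCR7, had differences of opposite sign in both tables. Ccl19 was at 9.73 FPKM in the knockout HDM library and 15.1 FPKM in the wild-type HDM library, a difference of -0.58 (ratio 0.646, interval 0.518 to 0.804). Ccl21a was at 73.0 FPKM in the knockout HDM library and 63.9 FPKM in the wild-type HDM library, a difference of 0.19, and was the one of the 8 above 0 there. With IL-22, Ccl19 was at 15.3 FPKM against 12.9 FPKM with PBS (difference 0.23, interval of the ratio 0.959 to 1.47). Ccl21a was at 20.04 FPKM with IL-22 and 38.4 FPKM with PBS. Its difference of -0.91 was short of the size rule, yet 28 of the 13233 measured genes had a lower one. Ccl21a thus stood first of the 8 in both HDM libraries, the second with PBS and the third with IL-22.

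The CCL19 and CCL21 values need care, because this locus is repeated. Of the 50-base windows of the Ccl21a transcript, 71.6% are found unchanged in transcripts of other genes of the locus, among them Ccl21b, and 68.2% of those of Ccl19 are found in Ccl19-like copies. For the other 6 genes no window was shared. The read estimates and intervals of Ccl19 and Ccl21a do not cover how shared reads were assigned. The tables list Ccl21b in 4 rows above 0 that carry one and the same value, 31.8 FPKM in the knockout HDM library and 25.7 FPKM in the wild-type HDM library, and 28.3 FPKM with IL-22 and 34.2 FPKM with PBS. Ccl21c was listed at 0. With all Ccl21 rows added, a sum chosen after seeing the data, the level was 200.2 FPKM in the knockout HDM library and 167 FPKM in the wild-type HDM library (difference 0.26), and 133 FPKM with IL-22 and 175 FPKM with PBS (difference -0.39). That sum counts the repeated Ccl21b value 4 times. With Ccl21a and 1 Ccl21b row, the level was 104.8 FPKM in the knockout HDM library and 89.5 FPKM in the wild-type HDM library (difference 0.22). It was then 48.3 FPKM with IL-22 and 72.6 FPKM with PBS (difference -0.58). In both sums the sign of each difference was that of Ccl21a, and the size with IL-22 was smaller.

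Ccr7 (chromosome 11, 99144199 to 99155077), the receptor of naive T cells and mature dendritic cells, was at 3.73 FPKM in the knockout HDM library and 5.25 FPKM in the wild-type HDM library. The 180 and 232 reads gave a ratio of 0.710 (0.581 to 0.866) and the difference was -0.40. It was at 5.03 FPKM with IL-22 and 5.38 FPKM with PBS, a ratio of 0.937 (0.773 to 1.14), and the sign of this difference of -0.08 turned to 0.01 when the libraries were scaled to a common total. Ccl19 was 2.40 to 3.04 times the level of Ccr7 in all 4 libraries. The ratio of Ccl21a to Ccr7 was 19.6 in the knockout HDM library and 12.2 in the wild-type HDM library, and 3.98 with IL-22 and 7.14 with PBS.

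Markers of T cells and mature dendritic cells lay mostly below 0 beside Ccr7 in the HDM table, nearly all within the size rule. T cell markers had a median of -0.58 over 9 measured genes with none called, and a summed level of 52.8 FPKM in the knockout and 82.3 FPKM in wild type. Cd5, a T cell surface receptor, had the largest difference of that list, -0.80. All 7 measured markers of mature dendritic cells lay below 0 (median -0.56), and Cd83, a maturation marker, was lower, at 4.89 FPKM in the knockout against 14.8 FPKM in wild type. In the IL-22 table the medians of these lists were 0.09 and 0.06, with none past the size rule. Lymphatic endothelium, a main source of CCL21 outside lymphoid organs, had a median of 0.26 over 4 measured markers in the HDM table and -0.12 in the IL-22 table. The first median drops to 0.05 with no filter on low values, and the markers did not all have the same sign. Lyve1, a hyaluronan receptor of those vessels also found on macrophages, was at 204 and 152 FPKM in the knockout and wild-type HDM libraries, and at 84.7 and 100.1 FPKM with IL-22 and PBS. Pdpn, the gene of podoplanin, which alveolar type I cells also make, had the largest difference of the list after HDM, -0.46 (110.5 FPKM in the knockout and 152 FPKM in wild type). Prox1, the transcription factor that defines lymphatic identity, was under the filter, with 31 reads in the knockout and 58 in wild type after HDM (ratio 0.489, interval 0.306 to 0.769) and 83 reads with IL-22 and 23 with PBS (ratio 2.51, interval 1.57 to 4.17). The part of these cells in the levels of Ccl21a and Ccr7 was not tested.

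Ackr4, listed under its older symbol Ccrl1, encodes a scavenging receptor that removes CCL19 and CCL21. It was the one gene called among the 5 measured partner receptors and paralogs, at 5.44 FPKM in the knockout HDM library and 2.18 FPKM in the wild-type HDM library, a difference of 1.02. That is close to the size rule. When the HDM libraries were scaled by their median ratio, Ackr4 fell short of it, and 16 list genes passed in place of 17. The 323 and 118 reads gave a ratio of 2.51 with an interval of 2.02 to 3.12. With IL-22 and PBS it was at 6.09 and 6.60 FPKM. Gpr183, an oxysterol receptor that positions B cells and dendritic cells, had differences of -0.39 and 0.07.

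**Figure D3:**
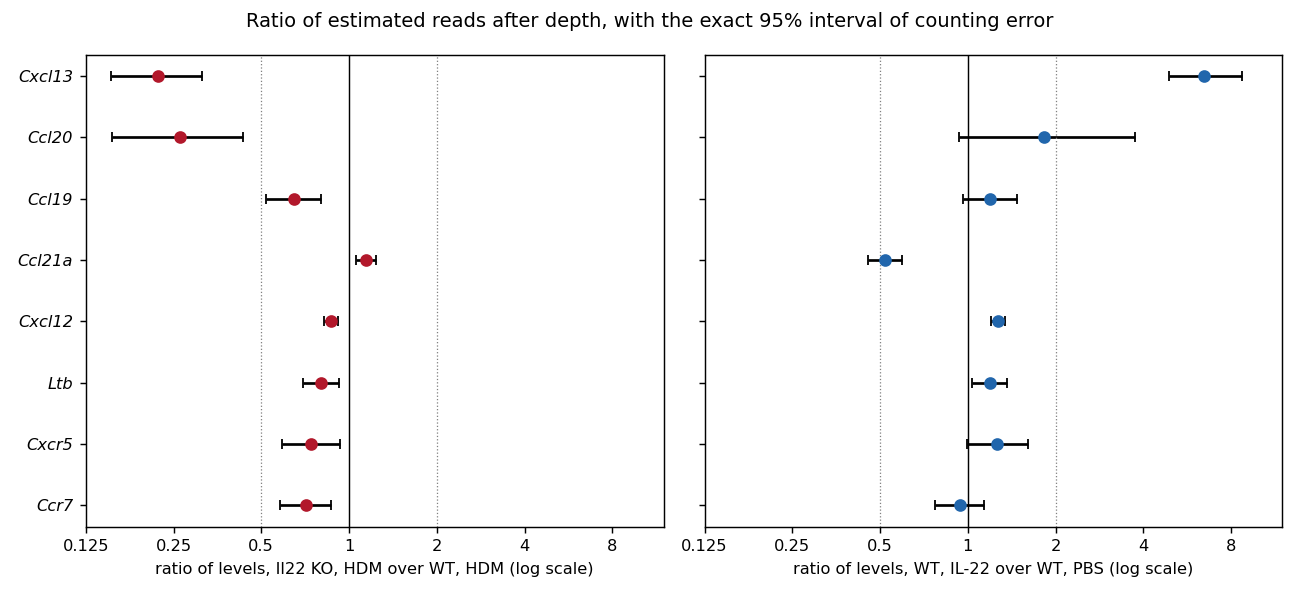
Ratio of estimated reads after depth for each of the 8 genes (horizontal, log scale) in the knockout over the wild-type HDM library (left) and in the IL-22 over the PBS library (right). Bars are exact 95% intervals of counting error and dotted lines mark a ratio of 0.5 and 2. The intervals of Cxcl13 (0.152 to 0.313) and Ccl20 (0.154 to 0.433) lie wholly below 0.5 on the left, and that of Cxcl13 (4.89 to 8.71) wholly above 2 on the right.

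Cxcl12 (chromosome 6, 117168535 to 117181368), a chemokine of stroma and vessels, stayed within the size rule in both tables. It was at 54.2 FPKM in the knockout HDM library and 62.6 FPKM in the wild-type HDM library (difference -0.21, ratio 0.865, interval 0.818 to 0.914). It was at 70.9 FPKM with IL-22 and 55.9 FPKM with PBS (difference 0.34, ratio 1.27, interval 1.20 to 1.34). With at least 1866 reads in each library the counting intervals leave out 1, but they hold no spread between animals. Its receptor Cxcr4 was at 31.8 and 31.1 FPKM in the knockout and wild-type HDM libraries, and at 39.9 FPKM with IL-22 and 57.9 FPKM with PBS, a difference of -0.53. Ackr3, listed as Cxcr7, the atypical receptor that takes up CXCL12, had differences of -0.06 and 0.08.

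Ltb (chromosome 17, 35194507 to 35196305) was at 14.7 FPKM in the knockout HDM library and 18.3 FPKM in the wild-type HDM library, a difference of -0.30 (ratio 0.802, interval 0.697 to 0.922). With IL-22 it was at 20.96 FPKM and with PBS at 17.6 FPKM, a difference of 0.24 (ratio 1.19, interval 1.04 to 1.36). Its partner subunit Lta stayed under the filter, at 0.296 to 0.440 FPKM in the 4 libraries, so lymphotoxin alpha was not resolved at this depth. The receptor gene Ltbr was at 45.8 and 44.1 FPKM in the knockout and wild-type HDM libraries, and at 53.2 and 56.5 FPKM with IL-22 and PBS, with differences of 0.05 and -0.09.

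None of the 12 measured genes of the lymphotoxin pathway and noncanonical NF-kB was past the size rule in either table, in a list of 15. Between the HDM libraries, 9 of the 12 lay below 0 (median -0.28), and the lowest were the NF-kB subunit genes Nfkb2 (9.11 FPKM in the knockout against 14.6 FPKM in wild type, difference -0.62) and Relb (5.21 FPKM in the knockout against 8.16 FPKM in wild type, difference -0.56). The 12 measured in the IL-22 table include Tnf in place of Tnfsf14, and 10 of them lay above 0 (median 0.12). Tnf, a related ligand, was at 1.61 FPKM with IL-22 and 0.599 FPKM with PBS, from 66 and 17 reads (ratio 2.70, interval 1.57 to 4.91), a difference of 0.71. In the HDM table Tnf was under the filter, with 10 reads in the knockout and 28 in wild type (ratio 0.327, interval 0.142 to 0.693). Tnfrsf14, a receptor of LIGHT, had differences of 0.39 and 0.58. Tnfsf11, the gene of RANKL, a signal of lymphoid tissue formation, had 11 reads in the knockout HDM library and 30 in the wild-type HDM library, a ratio of 0.336 (0.152 to 0.689) under the filter.

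Among survival and help signals of lymphocytes, none of 10 measured genes passed the size rule in the HDM table and none of 9 in the IL-22 table (medians -0.30 and 0.15). Il21r, the IL-21 receptor, had the lowest difference in the HDM table, -0.92, and Tnfsf13b, the gene of the B cell survival factor BAFF, had -0.56. Markers of high endothelial venules, the vessels through which lymphocytes enter lymph nodes, were uneven. Chst4, a sulfotransferase that builds selectin ligands, was at 7.74 and 7.69 FPKM in the knockout and wild-type HDM libraries, and at 11.5 and 14.0 FPKM with IL-22 and PBS. Sele, the E-selectin of activated endothelium, was lower in the HDM-treated knockout, at 0.175 FPKM against 1.90 FPKM in wild type. Madcam1 was listed at 0 in all 4 libraries, and Glycam1 in all except PBS, where it was at 0.118 FPKM.

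**Figure D4:**
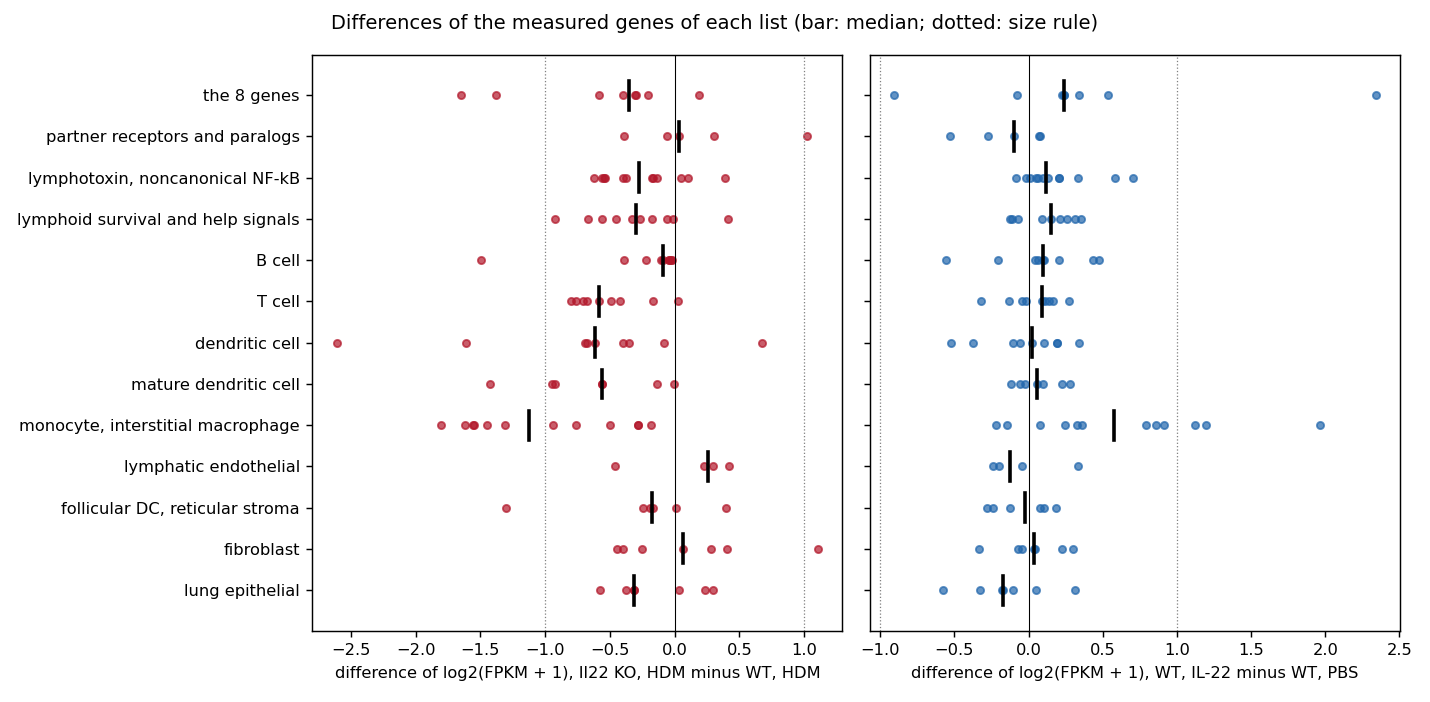
Differences of log2(FPKM + 1) (horizontal) of the measured genes of 13 lists, 1 point per gene, in the HDM table (left, knockout minus wild type) and the IL-22 table (right, IL-22 minus PBS). Black bars are list medians and dotted lines mark the size rule. Monocyte and interstitial macrophage markers have medians of -1.12 and 0.58, and B cell markers -0.09 and 0.10.

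Of the 26 other chemokine genes measured (Ccl21b among them) in the HDM table, 16 were lower in the knockout and none higher, with a median of -1.24, against 2 lower of 5 here and a median of -0.58. The other 3, Ccl19, Ccl21a and Cxcl12, lay between -0.58 and 0.19. In the IL-22 table none of 24 other chemokine genes was past the size rule, and their range of -0.30 to 0.89 left Cxcl13 above it and Ccl21a below it. Ccl8, a monocyte and type 2 chemokine, was at 12.3 FPKM in the knockout HDM library and 165 FPKM in the wild-type HDM library, while Cxcl14, named after its values were seen, an epithelial and stromal chemokine, was at 93.9 and 71.5 FPKM.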

How the data were processed

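RNA of frozen lungs was measured in 4 libraries, 1 per group, grouped by sample title. The authors deposited FPKM values in 2 tables of 23746 rows. Per the submitters' processing notes, mm10 was the build and TopHat2, Cufflinks 2.2.1 and CASAVA 1.8.2 were the tools. How libraries were scaled, and with which settings, is not given in the sources used here. From these values, 25 symbols turned into dates were restored by accession, and rows of a symbol were added, which gave 23284 genes. A gene counts as measured in a table where its mean FPKM is 1 or more. Levels were not subtracted across tables, which may have been normalized separately.

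Depth is the number of reads at which low FPKM values, times transcript length less 200 bases, came nearest to whole reads. Between 64.7% and 67.2% of low values lay within 0.1 of one. Chance gives 20% at a depth fixed in advance, but here the depth was fitted on these same values. The reads behind a gene and their exact binomial 95% intervals follow from it and cover counting error only. The steps were run on reads simulated at the fitted depths with the same lengths, which does not check those lengths. The outcome of that run is not reported here. Coordinates and upstream sequences are RefSeq's on GRCm38.p6 (98.2% of rows matched), and 50-base windows were searched in GENCODE M21 transcripts.

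The 8 genes and the 16 other lists were chosen with earlier results of these data known. Named are the 8, the partner and lymphotoxin genes, up to 4 genes of each other list with the largest differences, and the 3 nearest genes of each called member (some genes are not reported here), plus, chosen after their values were seen, Cd79a, Cr2, Il17a, Il17f, Madcam1, Glycam1, Clec9a, Cxcl14 and Sftpc. Scripts ran in Python 3.11.15 with matplotlib 3.10.9, scipy 1.17.1, pandas 2.3.3 and numpy 2.4.6.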

Additional observations from a re-analysis of the deposited data

How the results depend on the processing

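Under 9 alternatives, 7 planned and 2 chosen after seeing the data (without small RNAs, all Ccl21 rows added), 15 of the 16 differences of the 8 genes kept their sign wherever they were measured. The exception was Ccr7 with IL-22 under a common total. When the filter asked for a mean FPKM of 5, 0 of the 8 passed in the HDM table, since Cxcl13 and Ccl20 are then not measured there. At a size rule of 1.5-fold, Ccl21a joined Cxcl13 in the IL-22 table, which made 2. A pseudocount of 0.1 moved Cxcl13 to -2.10 and 2.65 and Ccl20 to -1.86 and 0.84. Over all genes, a pseudocount of 0.1 gave 131 higher and 488 lower in the HDM table and 132 higher with IL-22, and 26 list genes in the HDM table in place of 17. The size rule of 1.5-fold gave 429 higher and 852 lower in the HDM table (36 list genes), and 259 higher and 61 lower with IL-22 (8 list genes in place of 4). The filter at 5 left 193 lower in the HDM table, and without small RNAs 6 were lower with IL-22 in place of 25. Of 277 list medians under the alternatives, 269 kept their sign. The other 8 were of T cell, dendritic cell, stroma, blood endothelial and fibroblast markers with IL-22, and the medians reported for these lists lay within 0.1 of 0. In the HDM table, the filter at 5 moved the medians of the lymphotoxin list to -0.54, survival and help signals to -0.12, dendritic cells to -1.15 and alveolar macrophages to -0.91. A stricter filter tests fewer genes and a lower size rule calls more by construction, and the cause of the other shifts was not tested. No paired analysis was possible because each group has 1 library. Ccl20 with IL-22, Ccr6 and Lta are limited by depth.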

Other observations

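Sele and Fcgr2b were past the size rule in the HDM table, and Icos was not. Sele had 13 reads in the knockout and 128 in wild type after HDM. Their ratio after depth was 0.0929 (exact 95% interval 0.0482 to 0.165, counting error only). Fcgr2b, the inhibitory Fc receptor of B cells, macrophages and follicular dendritic cells, was at 17.6 FPKM in the knockout and 44.9 FPKM in wild type, and Icos, the costimulator of follicular helper T cells, had 66 reads in the knockout against 141 in wild type, a ratio of 0.428 (0.315 to 0.578) and a difference of -0.67. With IL-22 and PBS, Sele had 30 and 10 reads, a ratio of 2.09 whose interval of 0.992 to 4.78 includes 1.

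Tcf21, which encodes a mesenchymal transcription factor, was the fibroblast marker past the size rule, at 95.7 FPKM in the knockout HDM library and 43.9 FPKM in the wild-type HDM library, while the 7 fibroblast markers had a median of 0.07. The 7 blood endothelial markers had medians of 0.24 in the HDM table and 0.01 in the IL-22 table, with none past the size rule. Clec9a, a lectin of conventional type 1 dendritic cells, was at 11.7 FPKM in the knockout HDM library and 6.93 FPKM in the wild-type HDM library, the opposite direction to the dendritic cell list, whose 9 genes had a median of -0.61. The other 8 genes of that list lay below 0, and 2 of them were lower. Ccl17 was at 47.6 FPKM in the knockout and 296 FPKM in wild type (difference -2.61). Itgax was at 7.42 FPKM in the knockout and 24.7 FPKM in wild type (difference -1.61).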
